A study of Mus musculus with 6 samples.

Results

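The genes described here are the 8 numbered assembly factors of mitochondrial complex I, Ndufaf1 to Ndufaf8, chosen by their gene symbols. The count table lists 57010 genes, and 18114 of them, all 8 assembly factors included, had enough counts to be tested. Total RNA was sequenced from bone marrow monocytes of C57BL/6 mice aged 1 year, in 6 libraries. Femur-derived monocytes gave the 3 libraries S13, S15 and S18, and mandibular-derived monocytes the 3 libraries S16, S19 and S23. No library received a treatment, and the skeletal site was the only difference that the labels give between the groups. The monocytes were isolated by negative selection, in which unlabelled cells pass a magnetic column, so that any cell the antibodies do not bind stays in the sample. The mice were of both sexes, but the sex, the number of animals and the batch behind each library are not given in the sources used here. The p-values below therefore rest on the spread between these libraries and not on that between known animals. Those of edgeR also draw on the spread of the other tested genes.

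Complex I, or NADH:ubiquinone oxidoreductase, is the first and largest enzyme of the respiratory chain. It takes electrons from NADH in the N module, passes them to ubiquinone in the Q module and pumps protons through the membrane-bound P module. The modules are built separately and joined by assembly factors, proteins that are needed during construction and are not part of the finished enzyme. Monocytes are precursors of osteoclasts, the bone-resorbing cells, which are rich in mitochondria, and the study compared gene expression between monocytes of the jaw and of a long bone.

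The libraries held 15718782 to 25371474 counts on genes. Values are given as counts per 1000000 (CPM) scaled by TMM, a normalization for library composition. A count of 0 allows up to 3 counts, or 0.118 to 0.191 CPM before scaling. These limits cover counting error only. Library S23 stood apart in sex-linked transcripts, with 25189 counts of Xist against at most 12 elsewhere and no count of Ddx3y, Eif2s3y, Kdm5d or Uty. The other libraries had 840 to 1581 counts of Ddx3y. By these transcripts S23, a mandible library, was female and all others were male, so sex was not balanced between the sites. The 10 monocyte markers were present at a summed 8167 to 15377 CPM in femur libraries and 7080 to 13041 CPM in mandible libraries, and none was called (1 was higher at an unadjusted edgeR p under 0.05). Markers of other cells moved with the groups. The 15 mesenchymal and bone-forming markers were all called higher in the mandible (summed 223 to 269 CPM in femur libraries and 9167 to 15782 CPM in mandible libraries), as were 7 of 8 tooth and enamel markers (0.221 to 3.50 and 5780 to 11345 CPM) and 7 of 7 skeletal muscle markers (6.10 to 40.0 and 1312 to 4375 CPM). Lower in the mandible were 7 of 8 megakaryocyte and platelet markers (584 to 923 and 76.2 to 108 CPM), 3 of 8 erythroid markers (209 to 1464 and 93.1 to 172 CPM) and 1 of 10 neutrophil markers (3865 to 33245 and 3987 to 10425 CPM). At an unadjusted edgeR p under 0.05 those lower were 8 of 8, 7 of 8 and 6 of 10, and the medians of the log2 fold changes were -3.24, -2.16 and -1.52, with every marker of the 3 lists below 0. Of the B cell markers 1 of 6 tested was called higher, and no T and NK cell or endothelial marker was called (1 of 8 and 0 of 5 at an unadjusted p under 0.05). The part of these cells in the values below was not tested, and in bulk RNA fewer cells of a type and less RNA per cell cannot be told apart.

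All 8 assembly factors had a lower fitted level in mandibular-derived monocytes, and none of them passed the thresholds of the study. The log2 fold changes, mandible against femur, ran from -1.31 for Ndufaf6 to -0.47 for Ndufaf1, with a median of -0.81, against a median of -0.038 over all tested genes. Over all tested genes 52.2% had a log2 fold change below 0. A call needed at least a 2-fold change and a p under 0.05 in edgeR's quasi-likelihood test after Benjamini-Hochberg adjustment, and 0 of the 8 were called, where 5.18% of all tested genes were called in either direction and 1.3% lower. At an unadjusted p under 0.05 the count was 3 of 8 (Ndufaf4, Ndufaf6 and Ndufaf7), against 7.25% of all tested genes that were lower at this level. All mandible libraries lay below all femur libraries in 5 of the 8 (Ndufaf3, Ndufaf4, Ndufaf5, Ndufaf6 and Ndufaf7), against 11.5% of all tested genes. Without S23 the median of the 8 was -0.78 and 0 were called, against 551 of 19561 tested genes. In that setting 5 of the 8 did not overlap. Fewer libraries separate more easily, and the share over all tested genes was not counted there. DESeq2, and a test of every gene with a count, each called 1 of the 8, Ndufaf7. Over all tested genes these 2 settings called 1746 of 42116 and 1590 of 42225. With edgeR's exact test and limma-voom 0 of the 8 were called, against 1468 and 753 of 18114 tested genes.

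**Figure D1:**
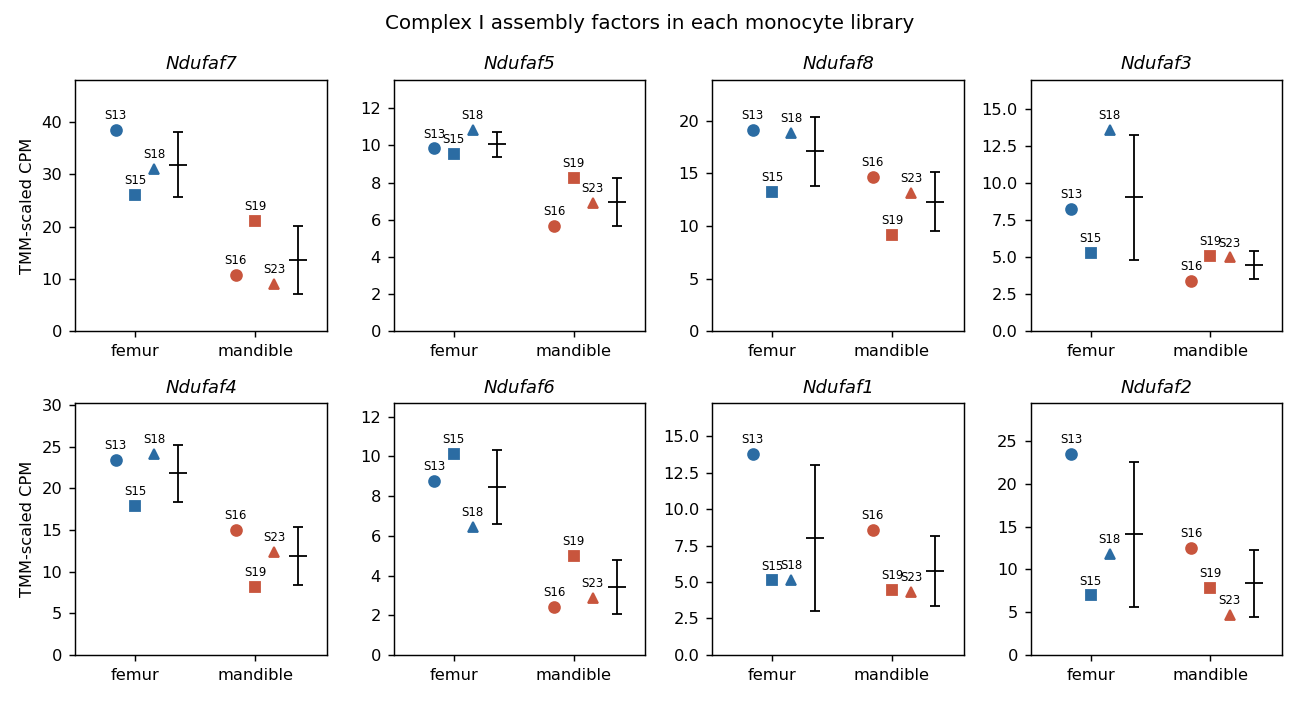
TMM-scaled CPM (vertical axis, from 0, its own scale for each gene) of the 8 complex I assembly factors in each of the 3 femur (blue) and 3 mandible (red) libraries, with the mean and SD of each group in black. The groups do not overlap in Ndufaf7, Ndufaf5, Ndufaf3, Ndufaf4 and Ndufaf6, and in Ndufaf1 and Ndufaf2 library S13 lies far above the other femur libraries.

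Ndufaf7 is an arginine methyltransferase of the matrix that acts early in assembly of the Q module. The gene lies at chr17:78937136-78948052 on the plus strand of GRCm38 and has 3503 bases of exon. It stood at 38.5 CPM in S13, 26.1 CPM in S15 and 31.1 CPM in S18 of the femur, and at 10.7 CPM in S16, 21.2 CPM in S19 and 9.04 CPM in S23 of the mandible. The groups did not overlap, and S19 lay nearest to the femur. Means were 31.9 ± 6.25 CPM for femur and 13.6 ± 6.58 CPM for mandible libraries (SD, n = 3 each). Its fitted log2 fold change of -1.22 (standard error 0.39, 95% interval -2.07 to -0.38) had the smallest p of the 8, 0.0087 before and 0.11 after Benjamini-Hochberg adjustment in edgeR. Leaving out 1 library gave adjusted p-values of 0.057 (without S19) to 0.42 and log2 fold changes of -1.74 to -1.05.

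Ndufaf5 hydroxylates an arginine of Ndufs7, a Q module subunit, and Ndufaf8 is the small protein that binds Ndufaf5 and keeps it stable. Ndufaf5 (chr2:140170649-140203689, plus strand) had 9.83, 9.54 and 10.8 CPM in S13, S15 and S18 and 5.65, 8.26 and 6.92 CPM in S16, S19 and S23. It had the tightest libraries of the 8, with a standard deviation within groups of 0.20 on the log2 scale, and its groups did not overlap. The fitted log2 fold change was -0.53 (standard error 0.44, 95% interval -1.51 to 0.44, edgeR, Benjamini-Hochberg adjusted p = 0.66). This standard error comes from edgeR's fit, which shares information on spread across genes, and not from these 6 values alone. Ndufaf8 (chr11:120098928-120100705, plus strand) had 19.1, 13.3 and 18.9 CPM in femur libraries and 14.7, 9.16 and 13.1 CPM in mandible libraries, in the same order of libraries. Here S16 exceeded S15, so the groups overlapped. Its log2 fold change was -0.47 (standard error 0.37, 95% interval -1.29 to 0.35, edgeR, Benjamini-Hochberg adjusted p = 0.64). Ndufs7, the subunit on which Ndufaf5 acts, was at 49.8 ± 9.26 CPM for femur and 47.2 ± 20.8 CPM for mandible libraries (SD, n = 3 each), with a log2 fold change of -0.08 (95% interval -0.80 to 0.64).

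Ndufaf3 and Ndufaf4 bind each other and hold the growing Q module until it meets the membrane. Ndufaf4 (chr4:24898083-24905001, plus strand) was at 23.4 CPM in S13, 17.9 CPM in S15 and 24.2 CPM in S18, and at 15.1 CPM in S16, 8.17 CPM in S19 and 12.4 CPM in S23. All mandible libraries were below all femur libraries, and the means were 21.8 ± 3.44 and 11.9 ± 3.48 CPM (SD, n = 3 each). Its log2 fold change of -0.88 (standard error 0.37, 95% interval -1.68 to -0.074) had a p of 0.035 in edgeR, which did not pass after Benjamini-Hochberg adjustment (0.25). Ndufaf3 (chr9:108565537-108567434, minus strand) was at 8.23, 5.25 and 13.6 CPM in S13, S15 and S18 and at 3.40, 5.08 and 4.98 CPM in S16, S19 and S23. The groups were separate by a narrow margin, since S15 lay just above S19, and the femur libraries differed more among themselves than those of the mandible. The log2 fold change was -1.01 (standard error 0.55, 95% interval -2.23 to 0.21, edgeR, Benjamini-Hochberg adjusted p = 0.43). The 48 exon bases shared by Ndufaf3 and Impdh2, on opposite strands, cannot be assigned to either gene without the strand of the reads, and whether the counting used it is not given.

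Ndufaf6, a relative of enzymes that join prenyl groups, is needed for early assembly around the Q module and the membrane arm next to it. The gene lies at chr4:11051045-11076205 on the minus strand. Femur libraries had 8.78 (S13), 10.1 (S15) and 6.45 CPM (S18), and mandible libraries 2.40 (S16), 4.99 (S19) and 2.86 CPM (S23). With all 6 libraries and no length correction this was the largest fitted difference of the 8, though Ndufaf7 was further from 0 after the length correction (-1.17 against -0.92), without S15 (-1.40 against -1.20) and without S19 (-1.74 against -1.73). Mean levels were 8.46 ± 1.86 CPM for femur and 3.42 ± 1.38 CPM for mandible libraries (SD, n = 3 each), without overlap. It rests on 146 to 220 counts per femur library and 48 to 105 counts per mandible library. The log2 fold change was -1.31 (standard error 0.57, 95% interval -2.56 to -0.046), with an unadjusted p of 0.043 in edgeR and 0.28 after Benjamini-Hochberg adjustment.

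Ndufaf1 and Ndufaf2 act outside the Q module. Ndufaf1 belongs to a complex of the inner membrane, with Acad9, Ecsit, Tmem126b and Timmdc1, that builds a part of the P module. Its gene (chr2:119655446-119662827, minus strand) had 13.8 CPM in S13, 5.11 CPM in S15 and 5.17 CPM in S18, and 8.56 CPM in S16, 4.46 CPM in S19 and 4.35 CPM in S23. One library of each group, S13 and S16, was high, and the other 4 lay close together across both sites. The log2 fold change of -0.47 (standard error 0.60, 95% interval -1.78 to 0.84, edgeR, Benjamini-Hochberg adjusted p = 0.80) became 0.18 without S13. Ndufaf2, a relative of the subunit Ndufa12 that is present on a late intermediate before the N module is complete, had the widest spread within groups, 0.79 on the log2 scale. It (chr13:108002715-108158623, minus strand) was at 23.5, 6.96 and 11.8 CPM in S13, S15 and S18 and at 12.6, 7.83 and 4.69 CPM in S16, S19 and S23. Both S16 and S19 exceeded S15, and the log2 fold change of -0.75 (standard error 0.55, 95% interval -1.95 to 0.45, edgeR, Benjamini-Hochberg adjusted p = 0.60) was -0.16 without S13. Ndufa12 had a log2 fold change of -0.77 (95% interval -1.72 to 0.18).

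**Figure D2:**
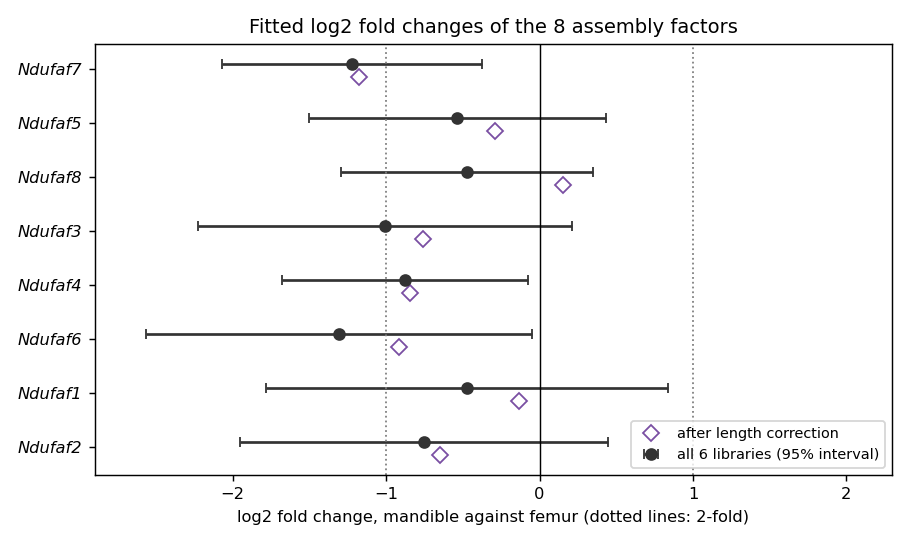
Fitted log2 fold change, mandible against femur (horizontal axis), of each assembly factor with its 95% interval (black), and the value after a correction for gene length (open diamonds). Dotted lines mark a 2-fold change. The intervals of Ndufaf7, Ndufaf4 and Ndufaf6 lie below 0 and the others cross it, and Ndufaf8 is at 0.15 after the correction.

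In an exact permutation test of log2 CPM, two-sided over 3 against 3 libraries, the 5 assembly factors without overlap had p = 0.1, the smallest this design can give. Ndufaf8 had p = 0.2, and Ndufaf1 and Ndufaf2 had p = 0.5 each in the same exact permutation test. The libraries separated by site in 5 of the 6 Q module factors, all except Ndufaf8 (3 of the 6 after a correction for gene length), and in neither Ndufaf1 nor Ndufaf2. A difference between these sets was not tested.

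The levels of the 8 genes can be compared only per length, as CPM per 1000 bases of exon. On that scale Ndufaf8 was highest in every library, at 20.5 ± 3.96 for femur and 14.8 ± 3.40 for mandible libraries (SD, n = 3 each). In the femur it was followed by Ndufaf7 at 9.10 ± 1.78, Ndufaf6 at 6.85 ± 1.51, Ndufaf5 at 5.63 ± 0.377, Ndufaf4 at 5.59 ± 0.881, Ndufaf1 at 5.35 ± 3.33, Ndufaf3 at 4.97 ± 2.32 and Ndufaf2 at 4.73 ± 2.86. From Ndufaf7 downwards each gene differed from the next by less than the sum of their standard deviations. In the mandible the 7 genes below Ndufaf8 lay between 2.47 (Ndufaf3) and 3.89 (Ndufaf7), without an order beyond their spread. The 36 nuclear subunits together had 20.6 to 24.6 times the summed level per length of the 8 assembly factors in femur libraries and 20.5 to 27.3 times in mandible libraries, ranges that overlap.

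The 8 genes varied together across the libraries in part. Summed over the 8, femur libraries had 145 (S13), 94.2 (S15) and 122 CPM (S18) and mandible libraries 73.0 (S16), 69.1 (S19) and 58.3 CPM (S23). As a mean deviation from each gene's own average on the log2 scale, S13 was at 0.71, S18 at 0.43 and S15 at 0.076, and the mandible libraries were at -0.32 (S16), -0.33 (S19) and -0.57 (S23). S15 was thus the femur library nearest to the mandible, and without it the median log2 fold change of the 8 was -1.09. Markers of other cells matched this order of the femur libraries only in part. Most megakaryocyte and platelet markers were highest in S18, not in S13. The summed neutrophil and erythroid markers fell from S13 to S18 to S15, though not every single marker of these lists did. Their summed levels were 33245 and 1464 CPM in S13, 24127 and 259 CPM in S18 and 3865 and 209 CPM in S15, against 3987 to 10425 and 93.1 to 172 CPM in the mandible, and their part in the values of the 8 genes was not tested. The highest value of a gene fell in S13 for 4 genes, in S18 for 3 and in S15 for 1, and the lowest in S16 for 3, in S23 for 3 and in S19 for 2. Over the 6 libraries the Pearson correlation of a gene with the mean of the other 7 ran from 0.48 (Ndufaf1) to 0.85 (Ndufaf7), given as a description, since the libraries fall into 2 sites and share their normalization.

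Fold changes followed gene length over the whole table. With the tested genes cut by length into 10 bins of equal number, the median log2 fold change was -0.65 in the bin of shortest genes and 0.23 in that of the longest. Ndufaf1, Ndufaf6 and Ndufaf8, with 1501, 1235 and 834 bases of exon, lie in bin 2, whose median was -0.36. Ndufaf3 (1815 bases) and Ndufaf5 (1789 bases) lie in bin 3, at -0.18. The longer Ndufaf2 (2978 bases) and Ndufaf7 (3503 bases) lie in bin 5, at -0.064, and Ndufaf4 (3902 bases) in bin 6, at -0.036. After the trend of log2 CPM with length was removed within each library, 7 of the 8 remained below 0, with a median of -0.71 against -0.0055 over all tested genes. Below 0 under this correction were 9110 of all 18114 tested genes. Ndufaf7 (-1.17), Ndufaf4 (-0.84) and Ndufaf2 (-0.65) changed little. Ndufaf6 moved to -0.92, Ndufaf3 to -0.76, Ndufaf5 to -0.29 and Ndufaf1 to -0.13, and Ndufaf8, the shortest, turned to 0.15. With the correction 3 of the 8 (Ndufaf4, Ndufaf5 and Ndufaf7) had all mandible libraries below all femur libraries, against 10.5% of all tested genes. An unadjusted edgeR p under 0.05 was left for 2 of the 8, Ndufaf4 and Ndufaf7 (0.041 and 0.0091). Of all 18114 tested genes 1126 were lower at this level. What produced the trend with length was not tested.

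**Figure D3:**
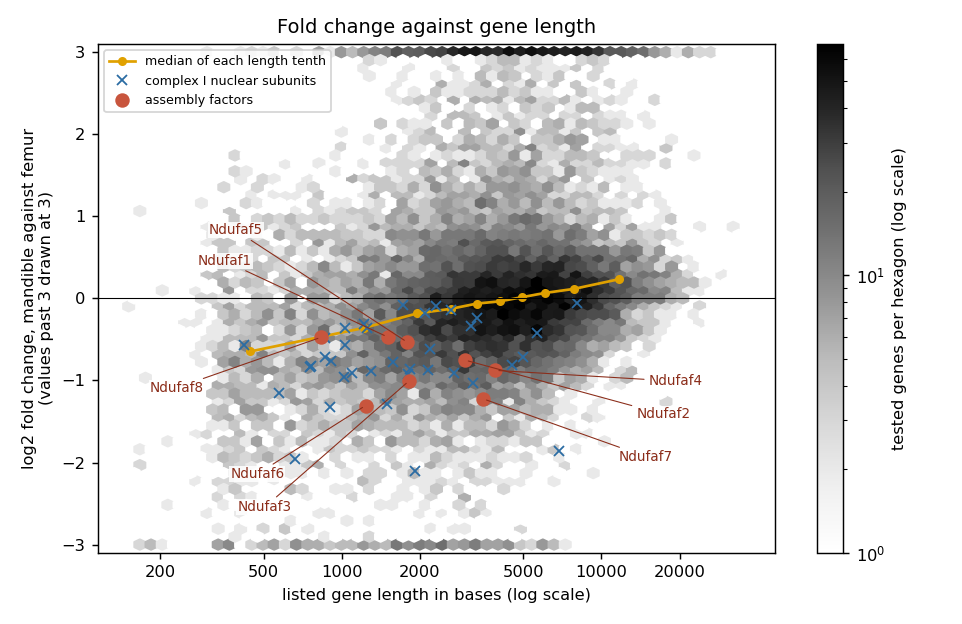
Log2 fold change, mandible against femur (vertical axis, values past 3 drawn at 3), against the listed gene length (horizontal log axis) for tested genes, shaded by their number, with the median of each of 10 length bins in yellow (the few genes beyond the ends of the axis are left out). The 8 assembly factors (red) lie at or below the yellow line, which climbs from -0.65 to 0.23, and the crosses are the complex I nuclear subunits.

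There are 5 genes among the 8 that start head to head with a gene on the other strand, at most 197 bases apart in GENCODE M21, so that both starts share the stretch between them. Ndufaf7 and Cebpz, a nucleolar protein gene, start 70 bases apart. Cebpz had a log2 fold change of 0.01 (95% interval -0.56 to 0.58) at 80.8 and 81.2 CPM. The ratio of Ndufaf7 to Cebpz counts was 0.374 to 0.417 in femur libraries and 0.123 to 0.229 in mandible libraries, a difference of -1.31 on the log2 scale (exact permutation p = 0.1). Ndufaf5 and Esf1, a gene of ribosomal RNA processing, start 85 bases apart and had the same arrangement of values. Esf1 was at 34.3 CPM in femur and 56.8 CPM in mandible libraries, a log2 fold change of 0.73 (95% interval -0.081 to 1.54), and the ratio of Ndufaf5 to Esf1 was 0.276 to 0.328 in femur and 0.0597 to 0.208 in mandible libraries (difference -1.13, exact permutation p = 0.1). The ratios of both pairs thus separated by site without overlap. All these ratios are of counts, without the length correction, under which Ndufaf7 was at -1.17 and Ndufaf5 at -0.29. The other 3 pairs had overlapping ratios. Those were Ndufaf2 with Ercc8 (108 bases apart, Ercc8 at -0.21, exact permutation p of the ratio 0.9), Ndufaf3 with the noncoding 4833445I07Rik (99 bases, -0.46, exact permutation p = 0.5) and Ndufaf8 with Tepsin (197 bases, -0.79, exact permutation p = 1.0). Of the genes that overlap a member, Impdh2, which shares exon bases with Ndufaf3, was at -0.84, and Smim15, which lies in an intron of Ndufaf2, at -0.39, and their ratios to the member overlapped between the sites. With 7 ratios tested and a smallest p of 0.1, none can pass 0.05.

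**Figure D4:**
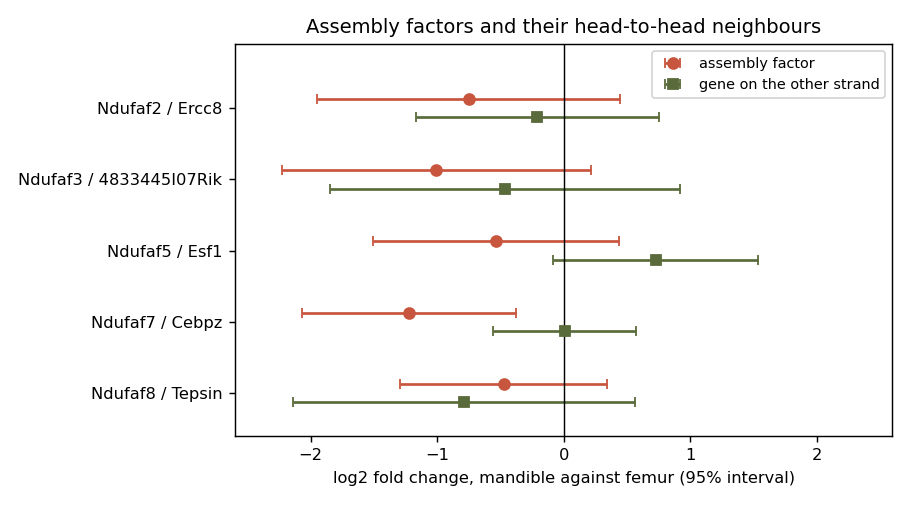
Fitted log2 fold changes, mandible against femur, with 95% intervals, of 5 assembly factors (red circles) and of the gene that starts head to head with each on the other strand (green squares). Cebpz lies at 0.01 and Esf1 at 0.73 beside negative values of Ndufaf7 and Ndufaf5, and the intervals of the other 3 pairs overlap widely.

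Promoter letters were read because these genes share their direction. RefSeq promoters on GRCm38.p6, from 250 bases before to 50 after each start, were matched for 7 of the 8 genes, and the entry for Ndufaf6 was not found. Searched on both strands were 3 motifs, chosen after the values were seen, namely the palindrome GCGCATGCGC of nuclear respiratory factor 1, the core CGGAAG of ETS factors such as GABP, and the box CCAAT. The first 2 factors are known regulators of nuclear genes for the respiratory chain. The NRF1 palindrome was in 2 of the 7 promoters (Ndufaf4 and Ndufaf5), in 1 of 32 nuclear subunit promoters and in 0.971% of all 32851 promoters. The ETS core was in 6 of the 7, all except Ndufaf2, in 8 of 32 nuclear subunit promoters and in 16.9% of all promoters. The CCAAT box was in 4 of the 7 (Ndufaf1, Ndufaf2, Ndufaf3 and Ndufaf8), in 10 of 32 nuclear subunit promoters and in 37.4% of all. Members and subunits were counted by gene, with the motif in any promoter entry, and all promoters by entry, so these shares are not strictly alike. The windows with the first 2 motifs, nearest to the start where there are several, are given here 5′ to 3′ on the strand of the gene, with the motif in capitals (CTTCCG is CGGAAG on the other strand). These letters are a description and show no binding.
Ndufaf4, NRF1 palindrome, chr4:24897960-24897989, plus strand: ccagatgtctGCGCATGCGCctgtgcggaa
Ndufaf5, NRF1 palindrome, chr2:140170652-140170681, plus strand: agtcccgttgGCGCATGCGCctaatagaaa
Ndufaf7, ETS core, chr17:78937056-78937081, plus strand: ccggagcttaCTTCCGctttacggtg
Ndufaf5, ETS core, chr2:140170615-140170640, plus strand: ctacttcaacCTTCCGccttggaact
Ndufaf8, ETS core, chr11:120098917-120098942, plus strand: cgttcgactcCGGAAGaggcagggcc
Ndufaf3, ETS core, chr9:108567531-108567556, minus strand: acggcgtgccCTTCCGctggctctag
Ndufaf4, ETS core, chr4:24897975-24898000, plus strand: tgcgcctgtgCGGAAGggtgggcggg
Ndufaf1, ETS core, chr2:119662836-119662861, minus strand: ggaccacaacCGGAAGcgtggcgaac
A link between these motifs and the fold changes was not tested.

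Other genes of complex I assembly were also mostly below 0. Of 13 listed, 12 were tested (Coa1 was not analysed here), 0 were called by edgeR (1 at an unadjusted p under 0.05), and 10 were below 0, with a median log2 fold change of -0.29. The membrane complex in which Ndufaf1 works was mixed. Ecsit was at 11.3 ± 1.73 CPM for femur and 17.3 ± 2.24 CPM for mandible libraries (SD, n = 3 each), with all mandible libraries above and a log2 fold change of 0.61 (95% interval -0.17 to 1.40). Its partners were at -0.15 (Acad9), -0.68 (Tmem126b) and -0.09 (Timmdc1). Foxred1, an oxidoreductase-like factor and the one with the highest CPM on the list, was at -0.45, and the lowest was Tmem70, which also serves ATP synthase, at -1.10 (95% interval -1.96 to -0.25). Their genes are longer, with a median length of 2998 bases against 1802 for the 8 numbered factors, and after the length correction the medians were -0.27 and -0.71.

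The listed nuclear subunits of complex I, the products that these factors put together, had a median log2 fold change of -0.77, with 36 of 36 below 0 and 3 called lower. The list lacks the P module subunit Ndufb1, which was also called lower and is given under the other observations. After the length correction the median was -0.42, with 28 of 36 below 0 and 2 called. The called subunits all belong to the P module (Ndufb4 at -2.11, Ndufb6 at -1.96 and Ndufab1, the mitochondrial acyl carrier protein, at -1.85, edgeR, Benjamini-Hochberg adjusted p = 0.016, 0.019 and 0.0088). Without S13 none of the 36 was called, without S18 2, without S19 1 and without S15 9, and after the length correction Ndufb6 was at -1.27 and lost its call (edgeR, Benjamini-Hochberg adjusted p = 0.095). By module the medians were -0.90 for 10 N module subunits, -0.37 for 5 Q module subunits and -0.71 for 21 P module subunits. The Q module, on which 6 of the 8 factors act, thus had the median nearest to 0, while those factors had a median of -0.94. After the length correction the Q module subunits were at 0.068, the N module at -0.65, the P module at -0.20 and the 6 factors at -0.80. The difference between factors and subunits was not tested. The 7 subunits encoded by mitochondrial DNA went the other way, with 1 of 7 below 0, a median of 0.59 and 0 called by edgeR (2 higher at an unadjusted p under 0.05). After the length correction their median was 0.95 and 2 were called higher. Those with the highest CPM, mt-Nd5, mt-Nd1 and mt-Nd2, were at 0.59, 0.39 and 0.90.

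Set against 15 genes of general mitochondrial content, such as citrate synthase, porins and import receptors, the assembly factors were also lower in the mandible. Per 1000 counts of those 15 genes, the 8 factors had 106 (S13), 112 (S15) and 93.4 counts (S18) in the femur and 74.1 (S16), 64.6 (S19) and 68.5 counts (S23) in the mandible. The femur library S15, low in CPM, was the highest by this measure, and the groups did not overlap. Nuclear subunits had 1861, 1827 and 1761 counts in the femur and 1338, 1336 and 1632 counts in the mandible, also without overlap. These ratios are within a library and free of its total, but not of gene length, since the content genes have a median length of 4310 bases.

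**Figure D5:**
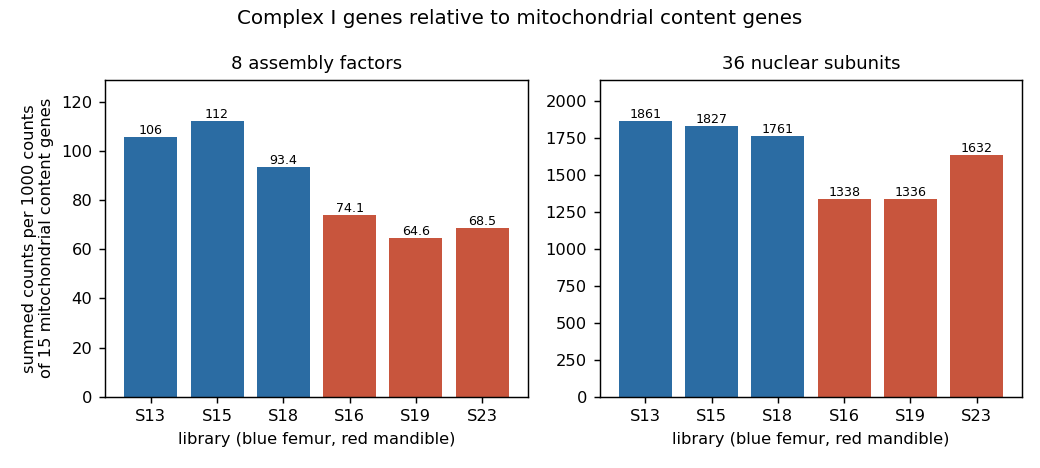
Summed counts of the 8 assembly factors (left) and of the 36 nuclear complex I subunits (right) per 1000 counts of 15 mitochondrial content genes, one bar per library, axes from 0. Femur bars (blue) lie between 93.4 and 112 on the left and mandible bars (red) between 64.6 and 74.1.

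The genes whose log2 CPM over the 6 libraries was most like the mean of the 8 were H3c1 (Pearson r 0.9994), Snrnp25 (0.9961), H4c2 (0.9914), Dctpp1 (0.991) and Smim4 (0.9904), among 18106 genes. H3c1 and H4c2 encode replication-dependent histones, and Snrnp25 a protein of the minor spliceosome. Of the 18114 tested genes, the 8 members included, 583 had an r over 0.9, so an r over 0.9 was not confined to the genes named here. Within the 89 other genes of complex I and of assembly of the respiratory chain the most alike were the subunit Ndufc1 (0.971), the complex IV assembly factors Coa3 (0.959), Cox14 (0.956) and Cox19 (0.955), and the subunit Ndufa7 (0.9499). Their log2 fold changes were -1.29, -1.30, -1.41, -0.95 and -0.86, and none of these 5 was called.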

How the data were processed

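Reads of 6 libraries were paired-end. Per the paper's methods and the submitters' processing notes, the authors used Trimmomatic for trimming, HISAT2 2.1.0 for mapping to GRCm38 and featureCounts for counting. The table they deposited holds raw counts per gene and library. The strand setting and the treatment of reads with several positions are not given in the sources used here. Of 52029 gene identifiers shared with GENCODE M21, an annotation of GRCm38, 2979 had a table interval inside the M21 gene. Among the 8 members 3 did. Most intervals of the table thus did not match this annotation, and the build behind them was not determined. Positions given here came from M21 by identifier. The listed lengths of the 8 genes equal their M21 exon union.

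The test was run with edgeR 4.0.16 under R 4.3.3 (filterByExpr, minimum count 10, minimum total 15; TMM; quasi-likelihood test, prior count 0.125; no covariates) over 18114 genes with Benjamini-Hochberg adjustment, and genes were called when the adjusted p was under 0.05 and the change at least 2-fold. Intervals are at 95%. Totals of 15718782 to 25371474 counts set the precision. The length correction removed a loess trend (span 0.4, degree 2, prior count 0.5) of log2 CPM on log2 length per library as an offset. Alternatives were DESeq2 1.42.0, limma 3.58.1 (voom), edgeR's exact test, other normalizations, filters, thresholds and prior counts, and leaving out each library. Scripts were tested on simulated data.

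The members and all gene lists were chosen with earlier results of these data known. Named were all members; from every other list up to 3 genes of highest mean CPM and up to 3 called genes of largest change; genes that overlap a member or start within 1000 bases of its start; the 5 genes most like the members' mean; and sex-linked genes. Partners and substrates of members (Ndufa12, Tmem126b, Ecsit) and Tmem70, and some genes in the observations, were named after their values were seen. Marker genes and 2 untested microRNAs next to Ndufaf3 that meet the rule are given only by list or not at all, and 1 other gene that meets it is not reported here.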

Additional observations from a re-analysis of the deposited data

How the results depend on the processing

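The 8 assembly factors had a negative log2 fold change in all alternatives except Ndufaf8 under the length correction (0.15) and Ndufaf1 without femur library S13 (0.18, in a range of -0.86 to 0.18 over the libraries left out). The number of them called was 0 except under DESeq2 (1, Ndufaf7, adjusted p = 0.049), with every gene with a count tested (1, Ndufaf7, edgeR adjusted p = 0.036) and at an unadjusted p without a fold change threshold (3), where the cause was not tested for the first 2. Their median ran from -1.09 (without S15) to -0.68 (without S13) when 1 library was left out and from -0.88 to -0.69 otherwise. Those without overlap between sites numbered 5, but 3 under the length correction, 4 with RLE factors, 6 without normalization factors and 5 to 7 with 1 library left out. The share of all tested genes was 11.5% in the main setting and 10.5% under the length correction. It was not counted for the others, and groups with 1 library left out separate more easily. Genes called numbered 938, but 1746 with DESeq2, 1468 with edgeR's exact test, 1590 with every gene tested, 2975 at an unadjusted p, 753 to 941 in the other alternatives with all 6 libraries (753 with limma-voom, 774 under the length correction), and 434 (without S19) to 1565 (without S15) with 1 library left out, including 509 without S13, 552 without S18 and 551 without S23. Called nuclear complex I subunits numbered 3, but 5 with DESeq2, 5 with the exact test, 6 with every gene tested, 18 at an unadjusted p, 2 under the length correction, 4 with at least 10 counts in every library, 4 with a mean CPM of at least 1 and 0 (without S13) to 9 (without S15) with 1 library left out (1 without S19, 2 without S18). The median of all tested genes was -0.84 with DESeq2 (42116 genes) and -1.09 with every gene tested (42225 genes), with genes of few counts included. The median of the 8 was -0.79 and -0.88 in these 2 settings, so there it was not below that of all tested genes. What moved the median of all tested genes was not tested. No paired analysis was made because the animals behind each library are not given, so whether libraries of the 2 sites share animals is not known. The lowest count behind a value of the 8 was 48 (Ndufaf6 in S16), and no alternative with all 6 libraries brought Ndufaf6 past adjustment.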

Other observations

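Most assembly factors of the other respiratory complexes also had lower fitted levels in the mandible. Of 36 listed, 34 were tested, 30 had a log2 fold change below 0, and the median was -0.78 (-0.39 after the length correction). One was called lower in the mandible, Pet100, an assembly factor of complex IV, at 95.2 ± 22.3 CPM for femur and 34.5 ± 4.35 CPM for mandible libraries (SD, n = 3 each, log2 fold change -1.46, edgeR, Benjamini-Hochberg adjusted p = 0.0080). By complex the medians were -1.64 for 4 factors of complex II, -0.59 for 6 of complex III, -0.48 for 20 of complex IV and -0.78 for 4 of complex V. Among those with the highest CPM were Cox17, a copper chaperone for complex IV, at -1.21 (95% interval -1.94 to -0.48), Sdhaf2, which adds flavin to succinate dehydrogenase, at -0.21, Uqcc2 at -0.81 and Atpaf2 at -0.11. The assembly factor of complex IV Coa5, also among them, was at 0.14.

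Of the 15 mitochondrial content genes, 13 were below 0 and none was called by edgeR (4 were lower at an unadjusted p under 0.05), with a median of -0.46. Those with the highest CPM were Hspa9, a chaperone of the matrix, at 0.45, the porin Vdac2 at -0.79 and citrate synthase (Cs) at 0.18. The 9 regulators of mitochondrial biogenesis had a median of -0.15 and none was called (1, Ppargc1a, at an unadjusted p under 0.05). Nrf1, whose palindrome was searched in the promoters, was at 81.4 ± 11.8 and 79.4 ± 20.7 CPM, and Gabpa, the ETS factor of the same kind of promoter, at 81.5 ± 17.9 and 82.5 ± 11.8 CPM (femur and mandible, SD, n = 3 each). Ppargc1a, a coactivator that is high in muscle, was at 0.372 ± 0.597 and 5.4 ± 3.66 CPM (SD, n = 3 each, log2 fold change 3.83, edgeR, Benjamini-Hochberg adjusted p = 0.20), beside the skeletal muscle markers that were higher in the mandible; their part in this value was not tested. The P module subunit Ndufb1, which was not on the list of 36 subunits and was added after its value was seen, was at 88.8 ± 32.7 and 26.7 ± 2.96 CPM (SD, n = 3 each, log2 fold change -1.73, edgeR, Benjamini-Hochberg adjusted p = 0.0063).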
